A study of Mus musculus with 9 samples.

Results

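Enzymes of amino acid catabolism take up the amino acids that a liver does not put into protein, remove their nitrogen and turn their carbon skeletons into fuel, glucose, ketone bodies or NAD. The 40 genes described here were listed by symbol, and all 40 were found among the 28517 genes of the expression table. By pathway they comprise 4 enzymes of tyrosine breakdown and 7 of the kynurenine route of tryptophan. There are 3 of the glycine cleavage system and 3 flavin enzymes that oxidize dimethylglycine, sarcosine and pipecolate. Lysine breakdown, proline and hydroxyproline breakdown, and histidine breakdown have 3 each. The remaining 10 break down branched chain amino acids or the acyl groups made from them, and 4 are aminotransferases. Enzymes of the urea cycle are not among them.

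The RNA came from livers of db/db mice, whose leptin receptor is defective and which are a model of obesity with diabetes. All mice carried this genotype, and 3 groups of 3 libraries each were compared after 12 weeks of treatment. One group received FGF19WT, the natural form of the intestinal hormone FGF19, which acts on hepatocytes through FGFR4 and its co-receptor β-klotho. Another received FGF19ΔKLB, a variant whose change in sequence the labels do not give, and the third received PBS as vehicle. Age and sex are not given in the sources used here, nor whether each library is a separate animal, so p-values measure the spread between these libraries, which may be technical. Libraries held 65.1 to 73.3 M counts, about 4 of which come from 1 read pair, and the 40 genes took 0.575% to 1.38% of them.

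Most of these enzymes are made by hepatocytes, and many are not spread evenly over the liver lobule. Histidine and glycine breakdown are known as periportal functions, placed where blood enters the lobule, while glutamine synthetase marks the cells around the central vein. Tyrosine aminotransferase and tryptophan dioxygenase are classic targets of glucocorticoids and glucagon, and the first committed steps of a pathway usually set its flux.

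Levels are given for each library as CPM, that is, counts per library total with TMM normalization. Comparisons between genes use the authors' FPKM, which corrects for transcript length. Calls use edgeR's quasi-likelihood test with p adjusted by Benjamini-Hochberg over all genes tested, and a threshold of 0.05. In vehicle livers the highest of the 40 was Hpd, the dioxygenase that makes homogentisate from the keto acid of tyrosine, at 723.7 ± 93.0 FPKM. Tat, the aminotransferase that starts tyrosine breakdown, followed at 277.4 ± 109.3 FPKM, and its vehicle libraries spanned 162.9 to 380.7 FPKM. Dmgdh, Fah, Tdo2 and Gcdh lay between 188.2 and 235.6 FPKM. The order of Tat, Dmgdh, Fah and Tdo2 is not resolved, since their vehicle ranges overlap. The lowest was Acmsd, which diverts tryptophan carbon away from NAD synthesis, at 1.15 ± 0.612 FPKM. As a sum, 10 hepatocyte markers reached 123973 to 233289 CPM with FGF19WT, 238685 to 333633 CPM with FGF19ΔKLB and 130824 to 187377 CPM with vehicle. Albumin made up most of these sums. Alone it was at 78702 to 169622 CPM with FGF19WT, 168099 to 248925 CPM with FGF19ΔKLB and 79547 to 135960 CPM with vehicle.

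FGF19WT libraries 2 and 3 did not resemble FGF19WT library 1, and every comparison with FGF19WT depends on this. Glul, the pericentral glutamine synthetase, was at 14770.2 and 12685.4 CPM in them and at 185 CPM in FGF19WT library 1, against 1000, 659 and 549 CPM in vehicle. The periportal Cyp2f2 was at 7.39 and 4.83 CPM in these libraries and at 306 CPM in FGF19WT library 1, against 491 to 584 CPM in vehicle. Of the 40 enzymes, 29 were lower in both libraries than in each of the other 7, or 72.5%. Over all 18142 genes tested that share was 19%. Only Hgd and Bckdhb lay above the other 7 in both, where 18.4% of all genes did, and 9 enzymes did not separate.

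**Figure D1:**
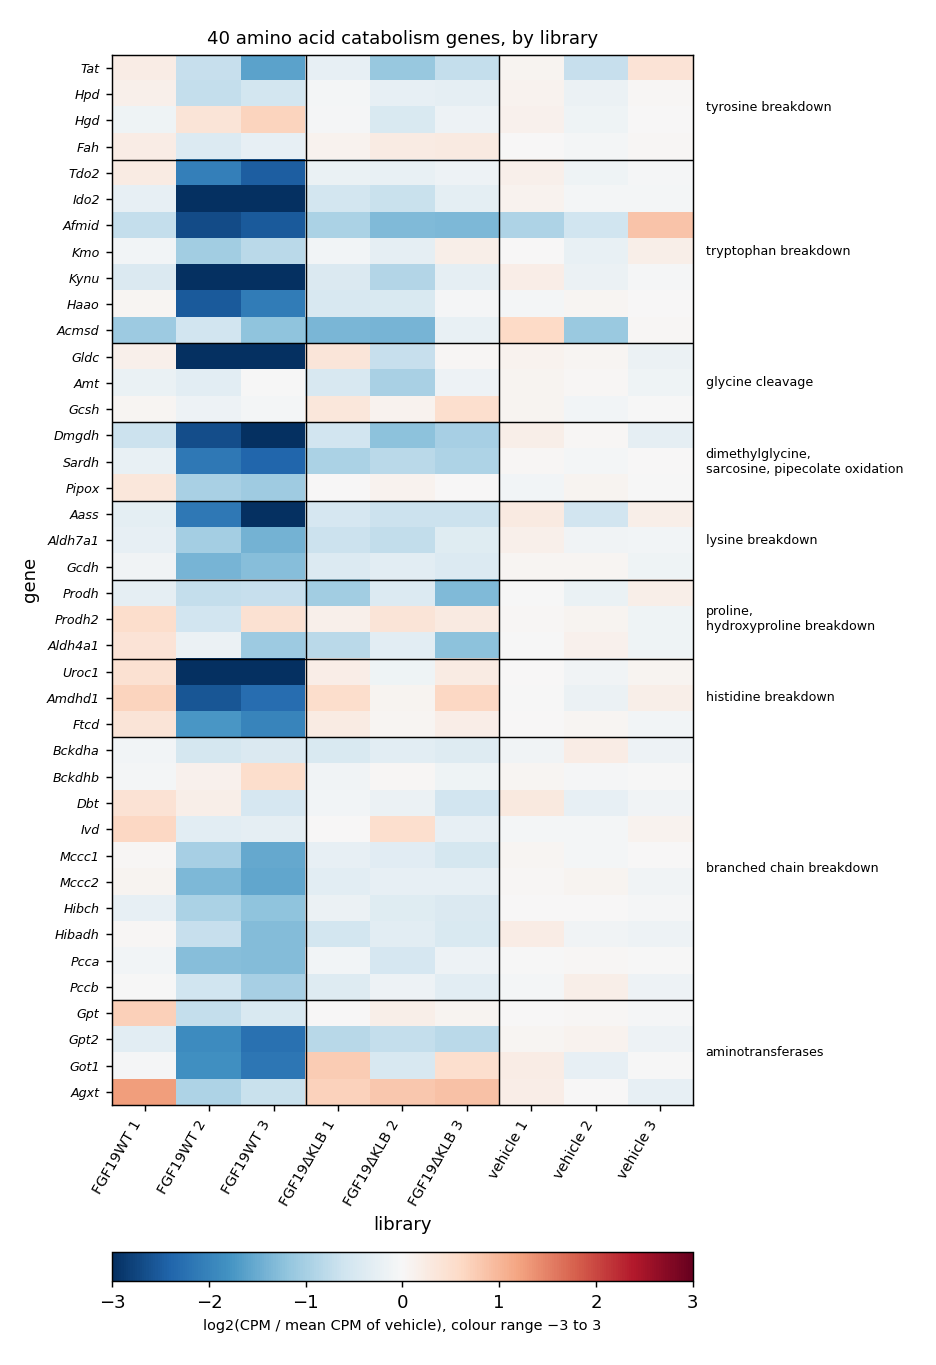
Level of each of the 40 genes in each library as log2 of its CPM over the mean CPM of vehicle, with genes in rows by enzyme group and libraries in columns, FGF19WT to the left, then FGF19ΔKLB and vehicle. FGF19WT libraries 2 and 3 are blue in most rows (29 genes below all other libraries). FGF19WT library 1 has a median log2 ratio of 0.0, with 15 of the 40 genes above every vehicle library and 11 below. Over all genes these shares were 28.3% and 27.2%. The FGF19ΔKLB libraries are slightly below vehicle (medians −0.32 to −0.23).

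The 3 histidine enzymes were all low in FGF19WT libraries 2 and 3, so their promoters are shown as regulatory sequence of members with a like pattern. These promoters, the 250 bases before the RefSeq transcription start on GRCm38.p6, are printed with that of Haao, a kynurenine enzyme, because it held the one TCF/LEF motif found. Capitals mark motif matches, and sequences run 5′ to 3′ on the strand of the gene. Uroc1 is at chr6:90333039-90333288 on the plus strand, Amdhd1 at chr10:93540034-93540283 on the minus strand, Ftcd at chr10:76575398-76575647 on the plus strand and Haao at chr17:83846791-83847040 on the minus strand.
Uroc1: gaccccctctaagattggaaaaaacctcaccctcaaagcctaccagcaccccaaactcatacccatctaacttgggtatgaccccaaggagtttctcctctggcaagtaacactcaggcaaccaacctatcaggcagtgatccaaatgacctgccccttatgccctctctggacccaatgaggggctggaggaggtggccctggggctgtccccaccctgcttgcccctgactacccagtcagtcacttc
Amdhd1: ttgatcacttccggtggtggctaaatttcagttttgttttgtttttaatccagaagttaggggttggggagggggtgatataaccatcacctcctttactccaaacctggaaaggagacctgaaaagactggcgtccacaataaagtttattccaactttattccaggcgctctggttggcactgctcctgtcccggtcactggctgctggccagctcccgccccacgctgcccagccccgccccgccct
Ftcd: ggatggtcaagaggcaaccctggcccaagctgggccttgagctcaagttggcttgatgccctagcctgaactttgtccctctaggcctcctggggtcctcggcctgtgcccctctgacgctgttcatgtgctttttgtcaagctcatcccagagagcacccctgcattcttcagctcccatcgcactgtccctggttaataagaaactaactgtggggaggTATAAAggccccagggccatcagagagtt
Haao: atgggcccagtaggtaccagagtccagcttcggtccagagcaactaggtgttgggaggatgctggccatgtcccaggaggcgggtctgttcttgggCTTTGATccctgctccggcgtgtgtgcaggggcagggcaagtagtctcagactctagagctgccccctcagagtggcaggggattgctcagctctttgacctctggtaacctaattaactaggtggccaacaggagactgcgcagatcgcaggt

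Of the 40 genes, 35 had a promoter in that table, and both strands of each were searched for 6 motifs. For 4 of the 35 the start used lay further from the deposited gene start than the window is long. These were Kmo (11812 bases), Prodh (1013), Fah (780) and Tdo2 (474). The TATA box (TATAAA) was found in 3 of the 35 (8.57%), Tdo2 among them, and in 12.4% of all 32851 promoters. The match of Ftcd begins 29 bases before its start. The C/EBP motif (TTGCNNAA) was in 4 of 35 (11.4%) against 9.56% of all promoters. The TCF/LEF motif (CTTTGAT) and the E-box (CACGTG) were each in 1 of 35 (2.86%), against 3.21% and 6.02% of all promoters. The HNF4A motif (CAAAGTCCA) and the HNF1 motif were in 0 of 35, against 0.384% and 0.0335%. These matches are descriptions of letters in a short window and show no binding.

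What the natural hormone changed is asked by FGF19WT against vehicle. None of the 40 genes was called over the 9 libraries, where 0.11% of all genes were (0.0276% higher and 0.0827% lower). DESeq2 called Dmgdh alone, as lower, and 9.61% of all genes. Before adjustment, 8 of the 40 had p under 0.05 on the lower side and 0 on the higher side, against 7.07% and 11.7% of all genes. The median log2 fold change was −0.65 over the 40, against −0.01 over all genes, and 34 of the 40 values were negative. Without FGF19WT libraries 2 and 3 together, 0 were called and the median was 0.00. Without FGF19WT library 1, 28 of 40 were called, all lower, where 27.4% of all genes were called in either direction. All these counts thus rest on which FGF19WT libraries are included.

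The enzymes of histidine breakdown split the FGF19WT libraries. Uroc1, urocanate hydratase, was at 849, 39.0 and 36.6 CPM in FGF19WT libraries 1, 2 and 3, against 623, 577 and 652 CPM in vehicle. Library 1 was thus above every vehicle library, and the other two were at least 14.5-fold below the lowest of the remaining 7 libraries. Amdhd1, which opens the imidazolone ring, stood at 250, 26.3 and 32.3 CPM with FGF19WT, against 156, 138 and 176 CPM with vehicle. Ftcd, which hands the last fragment of histidine to folate, stood at 596, 136 and 115 CPM with FGF19WT, against 459, 478 and 431 CPM with vehicle. All 3 genes had library 1 above vehicle and libraries 2 and 3 below it. The fitted log2 fold changes of −1.003 (Uroc1, SE 1.04), −0.61 (Amdhd1, SE 0.75) and −0.69 (Ftcd, SE 0.56) had SEs near or above their size, with adjusted p of 0.614, 0.675 and 0.514 in edgeR.

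The kynurenine route was low in the same libraries, with steps that differed in size. Tdo2, which opens the indole ring of tryptophan in liver, was at 959, 197 and 145 CPM with FGF19WT, against 908, 738 and 787 CPM with vehicle. Kynu, kynureninase, was at 78.3, 4.37 and 2.90 CPM with FGF19WT, against 121, 94.1 and 103 CPM with vehicle. Ido2, a second tryptophan dioxygenase, was at 40.3, 3.70 and 5.12 CPM with FGF19WT, against 51.6, 46.2 and 46.1 CPM with vehicle. For Kynu and Ido2 all 3 FGF19WT libraries lay below all vehicle libraries, but for Tdo2 library 1 was the highest of the 9. Haao, which makes the precursor of quinolinate, was at 75.1 and 99.6 CPM in libraries 2 and 3 and at 444 CPM in library 1, against 411 to 446 CPM in vehicle. Kmo, which hydroxylates kynurenine, moved less, with 136 and 160 CPM in libraries 2 and 3 and 266 CPM in library 1, against 240 to 315 CPM in vehicle. Afmid, kynurenine formamidase, was at 68.2, 17.3 and 19.5 CPM with FGF19WT, against 58.6, 72.9 and 202 CPM with vehicle, so 1 vehicle library was far above the rest. Acmsd was at 1.63, 2.29 and 1.495 CPM with FGF19WT, against 5.18, 1.58 and 3.54 CPM with vehicle, and the groups overlapped.

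Glycine, dimethylglycine and sarcosine feed the folate pool of mitochondria with single carbons. Gldc, the decarboxylase of the glycine cleavage system, was at 229, 9.69 and 8.62 CPM with FGF19WT, against 219, 215 and 181 CPM with vehicle. Its partner subunits did not share this. Amt, the aminomethyltransferase, was at 47.3, 43.6 and 53.9 CPM with FGF19WT, against 57.3, 55.8 and 49.4 CPM with vehicle. Gcsh, the lipoyl carrier protein, was at 88.9, 76.9 and 81.7 CPM with FGF19WT, against 90.4, 81.0 and 84.8 CPM with vehicle, and neither Amt nor Gcsh separated the groups. Dmgdh, dimethylglycine dehydrogenase, was at 548, 135 and 99.4 CPM with FGF19WT, against 970, 879 and 709 CPM with vehicle. Sardh, sarcosine dehydrogenase, was at 643, 168 and 143 CPM with FGF19WT, against 768, 723 and 751 CPM with vehicle. Both had each FGF19WT library below each vehicle library. Their log2 fold changes were −1.71 for Dmgdh (SE 0.59, adjusted p = 0.182 in edgeR) and −1.23 for Sardh (SE 0.52, adjusted p = 0.247). Pipox, a peroxisomal oxidase of sarcosine and pipecolate, was at 310, 124 and 118 CPM with FGF19WT, against 233, 260 and 245 CPM with vehicle.

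The lysine enzymes lay below the vehicle range in libraries 2 and 3. Aass, which starts the saccharopine route, was at 216, 59.3 and 28.6 CPM with FGF19WT, against 315, 176 and 297 CPM with vehicle. Aldh7a1, the next dehydrogenase, was at 374, 217 and 165 CPM with FGF19WT, against 496, 415 and 421 CPM with vehicle, without overlap (log2 change −0.82, SE 0.30, adjusted p = 0.196 in edgeR). Gcdh, glutaryl-CoA dehydrogenase, was at 510, 208 and 226 CPM with FGF19WT, against 575, 570 and 501 CPM with vehicle. In Gcdh library 1 lay within the vehicle range.

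Tyrosine and proline breakdown kept closer to vehicle. Tat was at 809, 432 and 230 CPM with FGF19WT, against 737, 431 and 926 CPM with vehicle, and the wide vehicle range held 2 of the 3 values. Hpd was at 994 and 1101 CPM in libraries 2 and 3 and at 1800.1 CPM in library 1, against 1442 to 1759 CPM in vehicle. Hgd, homogentisate dioxygenase, went the other way, at 470 and 573 CPM in libraries 2 and 3 and 329 CPM in library 1, against 327 to 392.4 CPM in vehicle. Fah, which completes the pathway, was at 608, 393 and 436 CPM with FGF19WT, against 525, 503 and 535 CPM with vehicle. Prodh, proline dehydrogenase, was at 197, 146 and 148 CPM with FGF19WT, against 237, 208 and 271 CPM with vehicle, without overlap (log2 change −0.54, SE 0.26, adjusted p = 0.293 in edgeR). Prodh2, the hydroxyproline dehydrogenase, was at 150, 69.6 and 143 CPM with FGF19WT, against 107, 111 and 94.3 CPM with vehicle, and overlapped. Aldh4a1, which serves both routes, was at 369, 244 and 130 CPM with FGF19WT, against 274, 305 and 252 CPM with vehicle.

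The 10 branched chain enzymes had log2 fold changes between −0.77 and 0.21, none of them called. Hibch, 3-hydroxyisobutyryl-CoA hydrolase of valine breakdown, had the smallest p of all 40. It was at 54.4, 33.4 and 28.0 CPM with FGF19WT, against 64.8, 65.2 and 62.5 CPM with vehicle (log2 change −0.73, SE 0.23, adjusted p = 0.16 in edgeR). Pcca, a subunit of propionyl-CoA carboxylase, was at 83.7, 37.0 and 36.1 CPM with FGF19WT, against 88.2, 91.0 and 88.6 CPM with vehicle. Hibch and Pcca were the branched chain genes whose groups did not overlap in CPM, and Bckdha and Pccb separated on the authors' FPKM scale only. The branched chain dehydrogenase itself differed by subunit: Bckdha was at 216, 161 and 169 CPM with FGF19WT, against 215, 267 and 208 CPM with vehicle. Bckdhb was at 63.4, 71.6 and 94.2 CPM with FGF19WT, against 68.4, 64.2 and 64.9 CPM with vehicle. Dbt overlapped between the groups, at 29.6 to 56.9 CPM with FGF19WT and 35.2 to 51.6 CPM with vehicle.

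Among the aminotransferases, the 2 alanine enzymes differed in level and in range. Gpt2, the mitochondrial form, was at 753, 254 and 198 CPM with FGF19WT, against 967, 1001 and 837 CPM with vehicle, without overlap (log2 change −1.22, SE 0.45, adjusted p = 0.204 in edgeR). Gpt, the cytosolic form, was at 331, 122 and 147 CPM with FGF19WT, against 204, 206 and 196 CPM with vehicle, so library 1 lay above vehicle and the other two below. Agxt, which clears glyoxylate in peroxisomes, had the same order, at 373, 82.9 and 99.4 CPM with FGF19WT, against 181, 158 and 132 CPM with vehicle. Got1, the cytosolic aspartate aminotransferase, was at 56.6, 16.1 and 13.0 CPM with FGF19WT, against 68.0, 48.7 and 57.4 CPM with vehicle. In all, 9 of the 40 genes (22.5%) had every FGF19WT library below every vehicle library, where 11.6% of all genes did: Ido2, Kynu, Dmgdh, Sardh, Aldh7a1, Prodh, Hibch, Pcca and Gpt2. None of the 40 lay above without overlap, where 11.0% of all genes did. These counts are in CPM. On the authors' FPKM scale 12 lay below, with Gcdh, Bckdha and Pccb added, and 0 above. The share over all genes was not computed on that scale.

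**Figure D2:**
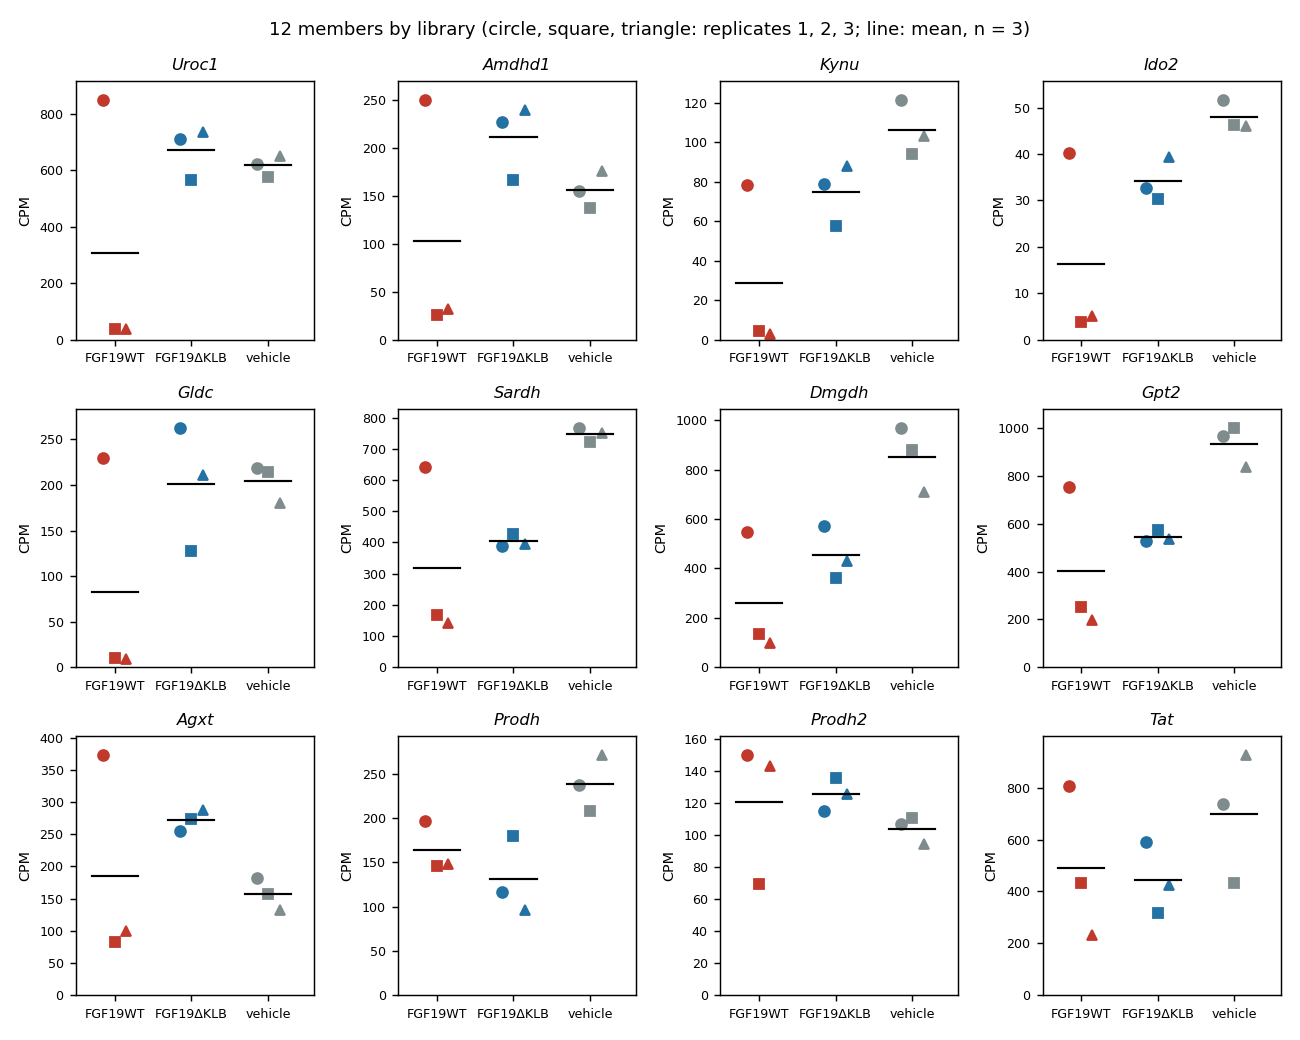
CPM of 12 of the 40 genes in each library, with FGF19WT at the left, then FGF19ΔKLB and vehicle, each point a library and each line the group mean. In the upper row and in Gldc, FGF19WT libraries 2 and 3 sit far below the rest (Uroc1 at 39.0 and 36.6 CPM), while the FGF19ΔKLB libraries of Sardh (390 to 428 CPM) and Gpt2 (526 to 573 CPM) lie close together below vehicle and those of Agxt (255 to 288 CPM) above it.

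Markers of other cell types differed in the same libraries. The summed level of 8 Kupffer cell and macrophage markers was 16.3 to 44.5 CPM in FGF19WT libraries 2 and 3 and 187 CPM in library 1, against 174 to 267 CPM in vehicle. That of 7 sinusoidal endothelial markers was 23.2 to 39.9 CPM in libraries 2 and 3 and 147 CPM in library 1, against 118 to 141 CPM in vehicle. The 12 Wnt and pericentral genes together were at 32273 and 36313 CPM in libraries 2 and 3 and at 5435 CPM in library 1, against 5319 to 9420 CPM in vehicle. T and NK cell markers, 7 genes, were at 1.41 to 4.70 CPM with FGF19WT, library 1 included, against 6.91 to 15.3 CPM with vehicle. Of the 12 periportal genes, the 11 other than albumin summed to 261 and 285 CPM in libraries 2 and 3 and to 10488 CPM in library 1, against 10009, 6643 and 9517 CPM in vehicle. Each of these 11 was lower in both libraries than in the other 7, by at least 4.94-fold (Hsd17b13) and up to 31.3-fold (Ass1, of the urea cycle). The part of these markers in the enzyme levels was not tested. In bulk liver, fewer cells of a type and less RNA per cell cannot be told apart.

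What the variant changed is asked by FGF19ΔKLB against vehicle. Sardh and Gpt2 fell and Agxt rose in the fit over the 6 libraries of these groups, whose error leaves out the FGF19WT spread. These were 3 of 40 genes, where 1.68% of all 17340 genes tested were called (0.894% higher and 0.79% lower). DESeq2 called 10 of the 40 and 7.97% of all genes, and limma on log2(FPKM + 1) called 6 and 4.59%, each with Agxt as the one gene that rose. Over all 9 libraries 0 of 40 were called, where 0.011% of all genes were, and 2 of 40 were lower at an unadjusted p under 0.05, where 8.35% of all genes passed it (4.64% higher and 3.72% lower). DESeq2 called 0 of 40 over 9 libraries, and 2.04% of all genes. The 3 calls in the 6-library fit were weak: without any single library other than FGF19ΔKLB 2 none remained, and without FGF19ΔKLB 2 the calls were Sardh and Prodh. A fit with the replicate number as a block called none of the 40, and 103 of all 17340 genes.

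Sardh was at 390, 428 and 394 CPM with FGF19ΔKLB, against 768, 723 and 751 CPM with vehicle. The groups were far apart and tight. The log2 fold change was −0.89 (SE 0.11, 95% interval −1.15 to −0.63, adjusted p = 0.0187 in edgeR over 6 libraries). Over the 14 alternatives its adjusted p ran between 2.76e-12 and 0.0753. Gpt2 was at 526, 573 and 535 CPM with FGF19ΔKLB, against 967, 1001 and 837 CPM with vehicle. It fell 1.72-fold (log2 change −0.78, SE 0.13, 95% interval −1.08 to −0.48, adjusted p = 0.0358 in edgeR, range over alternatives 1.03e-06 to 0.124). Agxt was at 255, 274 and 288 CPM with FGF19ΔKLB, against 181, 158 and 132 CPM with vehicle. It rose by 0.79 on the log2 scale (SE 0.15, 95% interval 0.46 to 1.13, adjusted p = 0.0474 in edgeR, range over alternatives 0.000219 to 0.118).

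On GRCm38, as the deposited table gives positions, Sardh lies on chromosome 2 from 27188393 to 27247414 on the minus strand. Gpt2 lies on chromosome 8 from 85492576 to 85527560 on the plus strand, and Agxt on chromosome 1 from 93135240 to 93145421 on the plus strand. Sardh overlaps Sardhos on the other strand, and whether counting used strand is not given in the sources used here. Of the 40 genes, 18 overlap another gene of the table, 6 of them on the same strand.

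More members lay below vehicle without being called. With FGF19ΔKLB, 19 of 40 genes (47.5%) had every library below every vehicle library, where 12.2% of all genes did, and 4 (10%) had every library above, where 12.4% did. On the authors' FPKM scale 20 lay below and 1 above, Agxt, while Fah, Gcsh and Prodh2 overlapped vehicle. The matching share over all genes was not computed on that scale, where the median of all genes was itself negative. At an unadjusted p under 0.05 there were 17 of 40 on the lower side and 3 on the higher side, against 8.85% and 8.47% of all genes. The median log2 fold change was −0.28 over the 40 and 0.00 over all genes. On the authors' FPKM scale the medians were −0.40 for the 40 and −0.10 for all genes measured at 1 FPKM or more in 3 libraries.

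**Figure D3:**
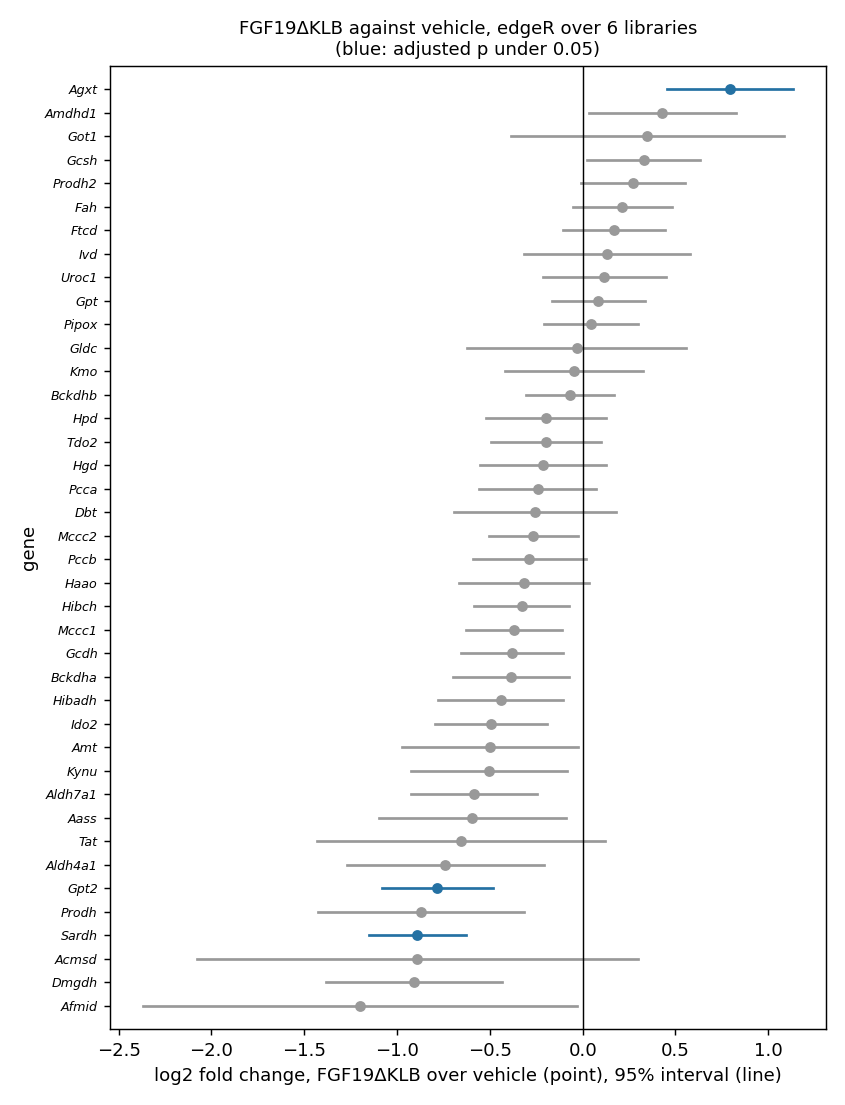
Log2 fold change of FGF19ΔKLB over vehicle for each of the 40 genes in the 6-library fit, with its 95% interval, sorted by size, and blue where the adjusted p was under 0.05. Most points lie left of 0 (29 of 40), and the 3 blue ones are Sardh, Gpt2 and, on the right, Agxt.

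Of these 19 genes, 4 were dehydrogenases of dimethylglycine or sarcosine or lysine enzymes, 7 were branched chain and 4 kynurenine enzymes. Dmgdh was at 571, 363 and 429 CPM with FGF19ΔKLB, against 970, 879 and 709 CPM with vehicle, a log2 fold change as large as that of Sardh but with more spread (−0.91, SE 0.20, adjusted p = 0.0756 in edgeR over 6 libraries). Pipox, the oxidase of sarcosine and pipecolate, was at 249, 265 and 249 CPM with FGF19ΔKLB, against 233, 260 and 245 CPM with vehicle, and overlapped. Aldh7a1 was at 283, 264 and 343 CPM with FGF19ΔKLB, against 496, 415 and 421 CPM with vehicle (−0.58, SE 0.15, adjusted p = 0.0989). Gcdh did not overlap vehicle either, at 412 to 440 CPM with FGF19ΔKLB and 501 to 575 CPM with vehicle, whereas Aass did, at 167 to 186 CPM and 176 to 315 CPM.

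The 3 enzymes of proline and hydroxyproline breakdown did not share a direction. Prodh was at 117, 180 and 96.02 CPM with FGF19ΔKLB, against 237, 208 and 271 CPM with vehicle (log2 change −0.87, SE 0.24, adjusted p = 0.124 in edgeR over 6 libraries). Aldh4a1 was at 157, 223 and 118 CPM with FGF19ΔKLB, against 274, 305 and 252 CPM with vehicle (−0.74, SE 0.23, adjusted p = 0.163). Prodh2 was at 115, 136 and 126 CPM with FGF19ΔKLB, against 107, 111 and 94.3 CPM with vehicle (0.27, SE 0.12, adjusted p = 0.302). For Prodh and Aldh4a1 all FGF19ΔKLB libraries lay below vehicle and for Prodh2 all lay above in CPM, and none of the 3 was called.

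All 7 kynurenine genes had negative values and 4 did not overlap vehicle, Tdo2, Ido2, Afmid and Kynu. Afmid had the largest fitted change of the 40, at 57.5, 44.3 and 43.4 CPM with FGF19ΔKLB, against 58.6, 72.9 and 202 CPM with vehicle (log2 change −1.20, SE 0.48, adjusted p = 0.279 in edgeR over 6 libraries), and was −0.44 without vehicle library 3, which stood far above the others. Acmsd was at 1.32, 1.301 and 2.95 CPM with FGF19ΔKLB, against 5.18, 1.58 and 3.54 CPM with vehicle, and overlapped. Ido2 was at 32.8, 30.4 and 39.4 CPM with FGF19ΔKLB, against 51.6, 46.2 and 46.1 CPM with vehicle (log2 change −0.49, SE 0.13, adjusted p = 0.113 in edgeR over 6 libraries). Kynu was at 79.0, 57.6 and 88.0 CPM with FGF19ΔKLB, against 121, 94.1 and 103 CPM with vehicle. Of the 10 branched chain genes 7 lay below vehicle without overlap, Bckdha, Mccc1, Mccc2, Hibch, Hibadh, Pcca and Pccb. Among them Mccc1, a subunit of the carboxylase of leucine breakdown, was at 46.3, 43.7 and 38.4 CPM with FGF19ΔKLB, against 57.3, 52.8 and 55.5 CPM with vehicle (−0.37, SE 0.11, adjusted p = 0.155). Their log2 fold changes lay between −0.44 and −0.24.

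Of the histidine enzymes none lay below vehicle without overlap, and their summed FPKM overlapped vehicle as well. Uroc1 was at 710, 567 and 735 CPM with FGF19ΔKLB, against 623, 577 and 652 CPM with vehicle, and overlapped. Amdhd1 was at 227, 167 and 240 CPM with FGF19ΔKLB, against 156, 138 and 176 CPM with vehicle (log2 change 0.43, SE 0.17, adjusted p = 0.255 in edgeR over 6 libraries). Ftcd was at 542, 475 and 525 CPM with FGF19ΔKLB, against 459, 478 and 431 CPM with vehicle. Gldc was at 263, 128 and 211 CPM with FGF19ΔKLB, against 219, 215 and 181 CPM with vehicle, the library furthest down being FGF19ΔKLB 2. The other 2 glycine cleavage genes ran in opposite directions. Gcsh was at 109, 92.2 and 122 CPM with FGF19ΔKLB, against 90.4, 81.0 and 84.8 CPM with vehicle, and Amt was at 38.9, 27.5 and 48.6 CPM with FGF19ΔKLB, against 57.3, 55.8 and 49.4 CPM with vehicle.

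Of the tyrosine enzymes, Tat was at 590, 316 and 424 CPM with FGF19ΔKLB, against 737, 431 and 926 CPM with vehicle (log2 change −0.66, SE 0.33, adjusted p = 0.368 in edgeR over 6 libraries), and the groups overlapped. Fah was at 562, 622 and 631 CPM with FGF19ΔKLB, against 525, 503 and 535 CPM with vehicle. It lay above vehicle in all 3 libraries in CPM without being called. Hpd and Hgd overlapped between the groups.

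Markers of other cell types also differed in this comparison. The summed level of 7 sinusoidal endothelial markers was 64.1 to 97.3 CPM with FGF19ΔKLB, against 118 to 141 CPM with vehicle. The 8 Kupffer cell and macrophage markers overlapped, at 166 to 197 CPM with FGF19ΔKLB, against 174 to 267 CPM with vehicle. T and NK cell markers were at 2.30 to 3.66 CPM with FGF19ΔKLB, against 6.91 to 15.3 CPM with vehicle. The 12 Wnt and pericentral genes were at 2291 to 3803 CPM with FGF19ΔKLB, against 5319 to 9420 CPM with vehicle. The 11 periportal genes other than albumin summed to 7866 to 9171 CPM with FGF19ΔKLB, against 6643 to 10009 CPM with vehicle. Single genes of this sum differed. Cyp2f2 (122 to 489 against 491 to 584 CPM) and Etnppl (9.76 to 28.5 against 51.5 to 122 CPM) lay below vehicle. Cps1 (2061 to 2661 against 1155 to 1903 CPM) lay above, and the rest overlapped. Albumin took 16.3% to 21.1% of counts with FGF19ΔKLB, against 8.6% to 13.5% with vehicle. The part of these in the enzyme levels was not tested.

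**Figure D4:**
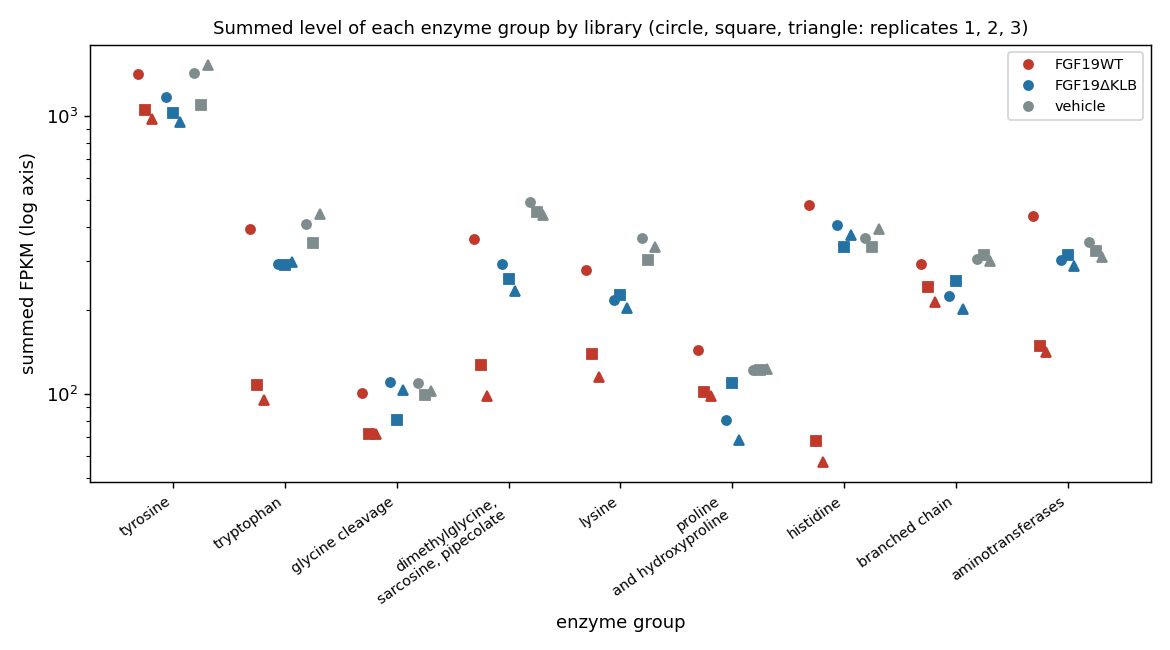
Summed FPKM of the members of each enzyme group in each library on a log axis, FGF19WT at the left of each set, then FGF19ΔKLB and vehicle. The histidine group shows the widest gap, with 67.7 and 57.0 FPKM in FGF19WT libraries 2 and 3. It is at 339 to 404 FPKM with FGF19ΔKLB and 339 to 391 FPKM with vehicle. The dimethylglycine, sarcosine and pipecolate group is below vehicle in all 6 treated libraries (98.3 to 360.5 FPKM against 440 to 489 FPKM). So are the lysine and branched chain groups.

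Summed over a pathway, transcript abundance placed the groups differently. The 3 genes of dimethylglycine, sarcosine and pipecolate oxidation summed to 360.5, 127 and 98.3 FPKM with FGF19WT and to 293, 260 and 234 FPKM with FGF19ΔKLB, against 489, 451 and 440 FPKM with vehicle. The 3 lysine enzymes summed to 280, 140 and 115 FPKM with FGF19WT and to 218, 227 and 203 FPKM with FGF19ΔKLB, against 364, 303 and 337 FPKM with vehicle. The branched chain genes summed to 293, 242 and 214 FPKM with FGF19WT and to 225, 254 and 203 FPKM with FGF19ΔKLB. With vehicle they summed to 305.5, 317 and 300.5 FPKM. In these groups, and in no other, every library of either FGF19 form lay below every vehicle library. On the FPKM scale the median log2 fold change of all genes measured was itself −0.10 with FGF19ΔKLB and 0.03 with FGF19WT against vehicle. All 40 genes together summed to 3894, 2060 and 1870 FPKM with FGF19WT and to 3101, 2903 and 2723 FPKM with FGF19ΔKLB, against 3949, 3406 and 3982 FPKM with vehicle.

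The comparison of FGF19ΔKLB with FGF19WT asks where the variant and the natural hormone differ. None of the 40 genes was called, and none of all 18142 genes was either (0.0%). At an unadjusted p under 0.05 there were 3 of the 40, 2 higher and 1 lower, where 12.5% of all genes passed it (4.54% higher and 7.96% lower). DESeq2 called 0 of the 40 and 4.6% of all genes. Gcsh was the one gene of the 40 with no overlap, at 109, 92.2 and 122 CPM with FGF19ΔKLB, against 88.9, 76.9 and 81.7 CPM with FGF19WT (log2 change 0.38, SE 0.15, adjusted p = 0.354 in edgeR). Over all genes 7.15% lay higher and 6.39% lower without overlap. Got1 was at 98.3, 41.8 and 82.0 CPM with FGF19ΔKLB, against 56.6, 16.1 and 13.0 CPM with FGF19WT (1.37, SE 0.56, adjusted p = 0.364). Uroc1 and Kynu had large fitted differences with wide intervals, 1.12 (95% interval −1.26 to 3.50) and 1.39 (−0.98 to 3.77). The median over the 40 was 0.40, and −0.30 without FGF19WT libraries 2 and 3. Without FGF19WT library 1, 25 of 40 were called, 24 higher and 1 lower, where 20.2% of all genes were called.

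Both FGF19 forms were compared with the same vehicle libraries, so their member lists are not independent.

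Beyond the 40, other enzymes of the same pathways were tested from a list of 40, of which 39 were measured. In the 6-library fit of FGF19ΔKLB against vehicle 1 rose and 2 fell, or 3 of 39, where 1.68% of all genes were called. Over 9 libraries none of the 39 was called. Kyat1, a kynurenine aminotransferase, was at 129, 123 and 232 CPM with FGF19ΔKLB, against 52.5, 56.1 and 64.8 CPM with vehicle (log2 change 1.48, SE 0.26, adjusted p = 0.0461 in edgeR). Oat, the pericentral ornithine aminotransferase, was at 215, 138 and 176 CPM with FGF19ΔKLB, against 1227, 658 and 513 CPM with vehicle (−2.18, SE 0.35, adjusted p = 0.043). Agxt2, a mitochondrial aminotransferase of glyoxylate, was at 182, 178 and 147 CPM with FGF19ΔKLB, against 277, 346 and 268 CPM with vehicle (−0.82, SE 0.15, adjusted p = 0.0489). When each of the 6 libraries was left out in turn, Oat was called in 1 fit, Kyat1 in 2 and Agxt2 in 0.

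With FGF19WT none of these 39 was called. Oat was at 271, 4638 and 2966 CPM with FGF19WT, against 1227, 658 and 513 CPM with vehicle, so its libraries 2 and 3 lay on the opposite side of vehicle from library 1. Acad8, of valine breakdown, was at 32.0, 27.3 and 28.6 CPM with FGF19WT, against 48.4, 55.5 and 44.7 CPM with vehicle (log2 change −0.76, SE 0.13, adjusted p = 0.0924 in edgeR). Etfdh, which passes electrons from Sardh, Dmgdh, Gcdh and Ivd to the respiratory chain, was at 212, 179 and 97.7 CPM with FGF19WT, against 329, 347 and 270 CPM with vehicle (−0.95, SE 0.29, adjusted p = 0.152).

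Of 10 amino acid carriers, 1 rose with FGF19ΔKLB in the 6-library fit. Slc43a1, a carrier of large neutral amino acids, was at 16.6, 14.7 and 23.5 CPM with FGF19ΔKLB, against 5.19, 4.10 and 6.92 CPM with vehicle (log2 change 1.75, SE 0.25, adjusted p = 0.0275 in edgeR), where 0.894% of all genes were called higher. It was called in 2 of the 6 fits without 1 library, with adjusted p up to 0.111, and not over 9 libraries (adjusted p = 0.253). With FGF19WT it was at 20.6, 7.77 and 9.70 CPM, above every vehicle library (1.23, SE 0.39, adjusted p = 0.157). Slc16a10, a carrier of aromatic amino acids, was at 32.0, 255 and 189 CPM with FGF19WT, against 52.4, 29.7 and 35.4 CPM with vehicle (2.02, SE 0.62, adjusted p = 0.152).

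None of 12 regulators was called in any comparison, over 9 or over 6 libraries. Cebpb, a transcription factor of gluconeogenic genes, was at 7.11, 17.6 and 12.0 CPM with FGF19ΔKLB, against 22.2, 27.2 and 31.8 CPM with vehicle (log2 change −1.15, SE 0.32, adjusted p = 0.141 in edgeR over 6 libraries). Tsc22d3, a glucocorticoid target, was at 25.1, 55.2 and 22.3 CPM with FGF19ΔKLB, against 83.5, 59.2 and 72.2 CPM with vehicle (−1.07, SE 0.36, adjusted p = 0.213). Ppara, a receptor of fasting metabolism, was at 39.7, 41.2 and 20.1 CPM with FGF19ΔKLB, against 57.7, 74.5 and 45.3 CPM with vehicle (−0.82, SE 0.31, adjusted p = 0.249). All 3 had every FGF19ΔKLB library below every vehicle library, as did Klf15 (107.6 to 124.6 against 125.7 to 144.9 CPM). Cebpa lay above vehicle without overlap, at 218.7 to 229.2 against 158.6 to 204.5 CPM. Thus 4 of the 12 regulators lay below and 1 above, where 12.2% and 12.4% of all genes did. With FGF19WT the smallest p was that of Foxo1, at 31.4, 22.0 and 18.2 CPM, against 33.5, 29.9 and 41.9 CPM with vehicle (−0.55, SE 0.22, adjusted p = 0.222).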

How the data were processed

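Expected counts and FPKM per gene and library were computed by the authors and deposited in 1 table. Per the submitters' processing notes, Bowtie 0.12.2, HISAT2 2.0 and StringTie 1.3.0 were used, with no role given, and the build is named mm8. Gene identifiers and starts were compared with GENCODE M21, and all 28517 matched it on GRCm38 (25998 ends did), so positions are on GRCm38. Low counts piled up at 4, 8, 12 and 16, and then at 19 and 23, so about 4 counts or slightly fewer stand for 1 read pair. Totals of 65.1 to 73.3 M are therefore about 16.3 to 18.3 M pairs.

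Expected counts, which are whole in the deposited table, went into edgeR 4.0.16 under R 4.3.3 (TMM, its own low-count filter, robust quasi-likelihood fit, group as the only term) over 9 libraries, with 18142 genes and 6 residual degrees of freedom. FGF19ΔKLB and vehicle were also fitted alone over 6 libraries, with 17340 genes and 4 residual degrees of freedom. Alternatives used DESeq2 1.42.0 on the same genes, limma 3.58.1 on log2(FPKM + 1) and log2(FPKM + 0.1) for genes with 1 FPKM in 3 libraries, no filter, a filter of 5 CPM in 3 libraries, DESeq2 size factors, counts divided by 4, a replicate block, and libraries left out. The fits were tested on simulated counts with changes of 4- and 8-fold only. Smaller changes, such as those of the called members, were not simulated. The simulated libraries of a group shared a common mean, so the split among the FGF19WT libraries was not simulated either.

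The 40 members, the lists and the 6-library fit were chosen with earlier results of these data known. Members called in any fit and the member with the smallest p of each enzyme group are described by library, and so are further members added after their values were seen. Other lists name called genes or up to 3 with the smallest p. One result that this rule would name is not reported here. Mmut was matched by its older symbol Mut, and Dao was not analysed here. Promoter sequences are from RefSeq. The hepatocyte, Kupffer, sinusoidal endothelial and T and NK cell lists and the pericentral list are given beside the results. Of the rest, periportal genes with albumin, which makes up most of the sum, came to 79073 to 179990.2 CPM with FGF19WT and 175834 to 257143 CPM with FGF19ΔKLB, against 89206 to 142491 CPM with vehicle, stellate markers to 195 to 231 and 106 to 218 CPM against 256 to 295 CPM, and cholangiocyte markers to 15.9 to 34.9 and 26.4 to 59.2 CPM against 49.7 to 63.4 CPM. B and plasma cell markers summed to 1.01 to 8.80 and 7.07 to 9.41 CPM against 14.0 to 50.2 CPM, and neutrophil markers to 1.78 to 6.22 and 7.76 to 137 CPM against 3.19 to 24.1 CPM.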

Additional observations from a re-analysis of the deposited data

How the results depend on the processing

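The number of the 40 members called depended on libraries and tool. With FGF19WT against vehicle it was 0, and it became 1 with DESeq2 (Dmgdh) and ranged between 0 and 28 when 1 library was left out, 28 being the value without FGF19WT 1. With FGF19ΔKLB against vehicle it was 0 over 9 libraries, 0 to 1 when 1 library was left out (Sardh, without FGF19WT 1), and 3 both over the 6 libraries compared and when FGF19WT 2 and 3 were left out together. With FGF19ΔKLB against FGF19WT it was 0, and 0 to 25 when 1 library was left out, 25 being the value without FGF19WT 1. In the 6-library fit it was 3, against 10 with DESeq2 (7.97% of all genes) and 6 with limma on log2(FPKM + 1) (4.59%). It was 5 with limma on log2(FPKM + 0.1), which called 425 of 10218 genes, and 0 to 2 when 1 library was left out. The limma fit on log2(FPKM + 1) called 130 genes higher and 339 lower over all genes, where edgeR called 155 and 137. The replicate block called 0 of the 40, and 103 of 17340 genes in the 6-library fit. Whether replicate numbers pair the libraries is not settled. In deviations from the group mean, same-numbered libraries had correlations of −0.05 to 0.15, and differently numbered ones −0.18 to 0.14. Most libraries, 6 of 9, matched best with their own number. These matches are not independent of each other and the correlations are small, so they do not settle the pairing.

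Leaving out FGF19WT 2 and 3 together turned 13 single-gene fold changes, none of them called. Against vehicle the log2 values became 0.68 (Amdhd1), 0.39 (Ftcd), 0.16 (Gldc), −0.13 (Hgd), −0.29 (Slc16a10), 0.24 (Tdo2) and 0.46 (Uroc1) for FGF19WT. For FGF19ΔKLB against FGF19WT they became −0.27 (Dmgdh), −0.22 (Ftcd), −0.28 (Gcdh), −0.09 (Hibch), −0.07 (Kynu) and −0.34 (Uroc1). The 1 library left in that group is assumed to vary like the others. Of 1092 single-gene values under alternatives, 980 kept direction and side of the threshold, 57 became calls and 42 lost one. The cause was not tested. With 3 libraries per group, a p that misses the threshold does not show that levels were alike.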
